A study of Homo sapiens with 8 samples.

Results

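The genes described here are 37 genes of cholesterol and fatty acid metabolism, most of them known targets or regulators of the SREBP transcription factors, and they were chosen by name. Of these, 30 had a row that the platform annotation pairs with their symbol, among 14884 symbols with such a row, and all 30 passed the filter on low values that left 12734 genes tested. By role they were 14 of 18 enzymes of sterol synthesis, 5 of 5 genes of SREBP regulation, 2 of 4 genes of sterol uptake, transport and efflux, and 9 of 10 enzymes of fatty acid synthesis. The expression of the other 7 (FDFT1, LSS, CYP51A1, SC5D, ABCA1, ABCG1 and ME1) was not analysed here. Expression was measured on Affymetrix Human Gene 2.0 ST arrays in MM1.S and NCI-H929, 2 established lines of multiple myeloma, a cancer of plasma cells. Each line carried a scramble hairpin (shSCR in the labels) or a hairpin against SIRT6 (shSIRT6), with 2 arrays in each of the 4 groups and 8 in all. SIRT6 is an NAD-dependent deacetylase of chromatin. The labels do not say how many hairpins or clones were used, or whether replicate arrays stand for independent cultures. The p-values therefore speak only of array-to-array spread, which could be technical.

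Cholesterol is built from acetyl-CoA through the mevalonate pathway. When sterols in the endoplasmic reticulum run low, the escort protein SCAP carries the precursors SREBP1 and SREBP2 (genes SREBF1 and SREBF2) to the Golgi, where proteases free their active part. That part then turns on genes of sterol and fatty acid synthesis. INSIG1 and INSIG2 hold SCAP back when sterols are plentiful, and INSIG1 is itself an SREBP target. In liver, SIRT6 has been reported to restrain SREBP genes, which is the question the comparison of constructs bears on.

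The promoters of 4 members are shown as single examples, and other members with the same expression patterns differed from them in motif counts. MSMO1 and INSIG1 had higher values with the SIRT6 hairpin in MM1.S and lower values in NCI-H929 than in MM1.S. SREBF2 encodes the factor that acts on them, and PMVK was higher in NCI-H929. Each sequence is the 250 bases before the start of the gene, 5′ to 3′ on the strand of the gene, from RefSeq (build GRCh38.p14). Capitals mark matches on either strand to the sterol regulatory element TCACNCCAC, the E-box CACGTG, the NF-Y box CCAAT or the Sp1 box GGGCGG. MSMO1 lies on the plus strand at chr4:165327419-165327668, INSIG1 on the plus strand at chr7:155297628-155297877, SREBF2 on the plus strand at chr22:41832855-41833104 and PMVK on the minus strand at chr1:154936720-154936969.
MSMO1: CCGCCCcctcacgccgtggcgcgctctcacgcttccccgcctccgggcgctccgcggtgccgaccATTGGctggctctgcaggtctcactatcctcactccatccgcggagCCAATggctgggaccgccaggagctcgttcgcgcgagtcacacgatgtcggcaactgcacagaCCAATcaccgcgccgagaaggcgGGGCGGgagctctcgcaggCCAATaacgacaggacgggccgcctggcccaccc
INSIG1: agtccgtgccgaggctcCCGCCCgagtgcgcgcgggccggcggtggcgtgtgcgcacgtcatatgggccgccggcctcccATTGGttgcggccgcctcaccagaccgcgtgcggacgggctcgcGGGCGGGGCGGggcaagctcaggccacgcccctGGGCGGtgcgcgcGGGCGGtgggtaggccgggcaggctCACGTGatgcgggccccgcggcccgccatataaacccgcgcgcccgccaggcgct
SREBF2: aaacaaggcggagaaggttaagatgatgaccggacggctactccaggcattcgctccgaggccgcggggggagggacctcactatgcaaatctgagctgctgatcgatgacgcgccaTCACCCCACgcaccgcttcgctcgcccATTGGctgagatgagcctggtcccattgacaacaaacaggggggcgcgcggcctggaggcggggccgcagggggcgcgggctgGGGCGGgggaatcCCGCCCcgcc
PMVK: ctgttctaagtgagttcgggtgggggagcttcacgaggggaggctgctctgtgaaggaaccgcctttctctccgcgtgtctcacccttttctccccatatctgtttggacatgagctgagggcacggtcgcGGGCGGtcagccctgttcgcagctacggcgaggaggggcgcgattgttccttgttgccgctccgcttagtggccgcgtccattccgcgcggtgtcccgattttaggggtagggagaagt

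MSMO1 held 4 NF-Y boxes, INSIG1 held 1 together with 1 E-box, and PMVK held none (0). These counts did not follow the expression patterns. Among sterol enzymes with the pattern of MSMO1, EBP held 3 NF-Y boxes, HMGCS1 held 2 and IDI1 held 0. Among those higher in NCI-H929 like PMVK, NSDHL held 5 and TM7SF2 held 1. ACAT2 and SQLE had no promoter entry. SREBF2 held the sterol element, between 133 and 125 bases before its start, followed by an NF-Y box between 106 and 102. In INSIG1, 2 of the 5 Sp1 boxes overlap by a base. Promoters were found in the table for 32 of the 37 members, and the first entry was taken for those with several. The 32 include LSS, CYP51A1, SC5D, ABCA1 and ME1, which are not among the tested genes. The sterol element was in 1 of 32 (3.12%), against 0.852% of 13387 promoters of tested genes of the same length. The NF-Y box was in 20 of 32 (62.5%) against 32.5%, with 12 of 15 among sterol synthesis genes (80%). The Sp1 box was in 29 of 32 (90.6%) against 58.4%, and the E-box in 5 of 32 (15.6%) against 7.96%. These are counts of letters in a window and not of bound sites, and a window without a match is silent on the factor.

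Levels are log2 values, so a difference of 1 is a doubling, and they were compared between arrays for one gene and never between genes. A gene is called when its Benjamini-Hochberg adjusted p from limma, taken over all 12734 genes, is below 0.05. Array medians over all rows ran from 3.88 to 3.97. Arrays of 1 group correlated at 0.989 to 0.992, arrays of the same line with the other construct at 0.985 to 0.989, and arrays of the different lines at 0.942 to 0.950. All 7 plasma cell markers with a row passed the filter, with mean levels of 5.36 to 11.5. With the hairpin in MM1.S, 3 of the 7 were positive and 4 negative. SDC1 (CD138) was called there, at 0.52 ± 0.091 (SE; limma adjusted p = 0.0461), while IRF4 was at −0.325 ± 0.090 and CD38 at −0.275 ± 0.12 (limma adjusted p = 0.121 and 0.256), and none of the 7 was called in NCI-H929. The part of these markers in the results below was not tested. The stromal markers DCN and LUM and the myeloid marker LYZ lay under the filter level of 3.045. The 6 other T, NK and myeloid markers with a row passed the filter, with mean levels of 3.50 to 9.40. CD68 was the 1 called between the lines with scramble, higher in NCI-H929 by 1.9 (limma adjusted p = 1.42e-05), where 38.3% of all genes were called. Of these 6, 0 were called with the hairpin in either line (limma). At an unadjusted p below 0.05 were CSF1R in MM1.S, at 0.565, and CD68 in NCI-H929, at −0.375. SIRT6 itself was lower on both hairpin arrays of each line than on both scramble arrays, by 0.295 ± 0.16 in MM1.S and 0.47 ± 0.16 in NCI-H929, and neither difference was called (limma adjusted p = 0.355 and 0.277). The constructs' labels are therefore checked only weakly.

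**Figure D1:**
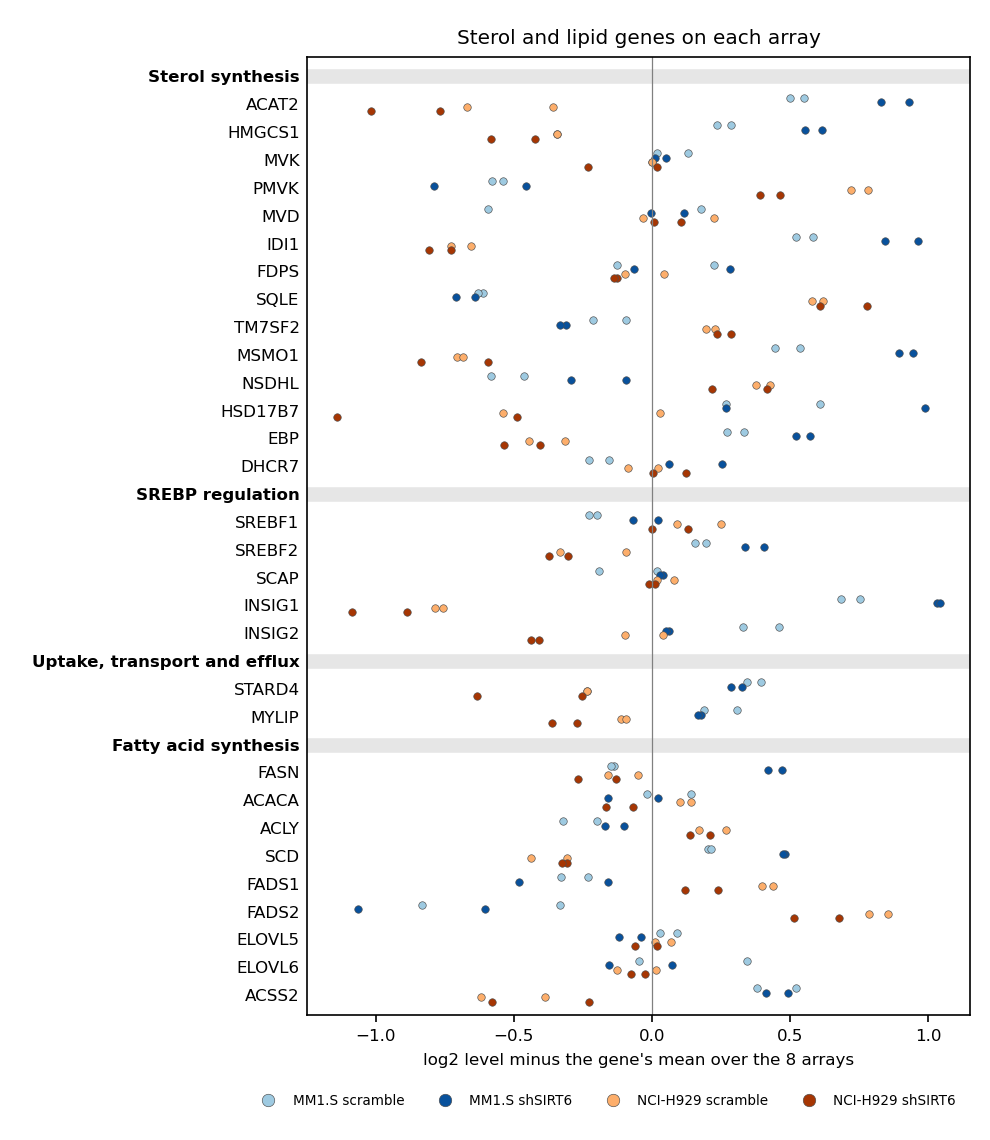
Each point is 1 array. The x axis is the log2 level minus the gene's mean over the 8 arrays, and the rows are the 30 members grouped by role. The lines lie apart for most genes (INSIG1, IDI1 and MSMO1 to the right in MM1.S, PMVK, SQLE and FADS2 to the right in NCI-H929), while within a line the constructs lie closer, with FASN in MM1.S the widest gap that was called.

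FASN, the fatty acid synthase that makes palmitate, was the 1 member called in MM1.S, and it rose with the hairpin. Both scramble arrays (8.14 and 8.13) read lower than both shSIRT6 arrays (8.75 and 8.70). The hairpin arrays lay clear of the scramble arrays, by a log2 difference of 0.59 ± 0.099 (SE, 2 arrays against 2), or 1.51-fold (limma adjusted p = 0.0452). Over all genes 1.33% were called in MM1.S and 0.204% were called higher, so a single call among 30 is little to set against either share. The call of FASN ended when any 1 of the 8 arrays was left out, with differences of 0.565 to 0.615 and adjusted p from 0.0655 to 0.2395, and it ended with a replicate block (adjusted p = 0.136). Whether a changed number of a kind of cell or a changed amount of RNA per cell lies behind such a difference cannot be told apart in bulk RNA.

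Enzymes of sterol synthesis had higher values with the hairpin in MM1.S, with a median log2 difference of 0.255 over 14 genes against 0.005 over all genes tested. Of them 10 were positive and 4 negative, where 50.4% of all genes were positive, and none was called (limma, 0 of 14). At an unadjusted p below 0.05 there were 7, all positive, where 8.25% of all genes passed in that direction. On 7 of the 14 both hairpin arrays lay above both scramble arrays, which held for 24.4% of all genes. The hairpin arrays lay below on 2 of them, where 26.3% of all genes did. Under the alternative settings the median ran from 0.23 to 0.30. Of the 14, 13 were positive after quantile normalization and 10 after cyclic loess. MVK, PMVK and SQLE turned positive after quantile normalization by small amounts, at 0.00125, 0.00875 and 0.0206.

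At the head of the pathway, ACAT2, the cytosolic thiolase that joins acetyl-CoA units, had scramble levels of 7.58 and 7.53 and shSIRT6 levels of 7.96 and 7.86 in MM1.S. HMGCS1, the HMG-CoA synthase that follows it, had 7.51 and 7.46 against 7.84 and 7.78. IDI1, the isomerase of the isoprenoid building blocks, had 7.82 and 7.76 against 8.20 and 8.08. In all 3 genes the constructs did not overlap, and the log2 differences were 0.36 ± 0.14, 0.33 ± 0.099 and 0.35 ± 0.098 (limma adjusted p = 0.221, 0.144 and 0.122). Of the kinases between them, MVK, the mevalonate kinase, differed by −0.05 ± 0.11 and PMVK, the phosphomevalonate kinase, by −0.07 ± 0.12, both less than their standard errors. PMVK read 7.45 and 7.49 with scramble and 7.57 and 7.24 with shSIRT6, so that its constructs overlapped. MVD, the decarboxylase, had a wide spread, with 5.0 and 5.77 against 5.71 and 5.59 (0.27 ± 0.23).

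In the later steps MSMO1, the sterol C4-methyl oxidase, had the lowest p of the enzymes, with levels of 10.13 and 10.04 against 10.54 and 10.49 and a difference of 0.43 ± 0.11 (limma adjusted p = 0.104). NSDHL, which acts in the same demethylation, had 7.35 and 7.47 against 7.64 and 7.84 (0.33 ± 0.12, adjusted p = 0.190). EBP, the sterol isomerase, had 8.34 and 8.40 against 8.64 and 8.59 (0.25 ± 0.10, adjusted p = 0.241). DHCR7, the reductase that makes cholesterol from its direct precursor, had 7.99 and 8.06 against 8.47 and 8.28 (0.35 ± 0.11, adjusted p = 0.152). None of these 4 overlapped between the constructs. Other steps of the same stretch stood apart from them: SQLE, the squalene epoxidase and a rate-limiting step, read 7.11 and 7.09 against 7.01 and 7.08, a difference of −0.06 ± 0.10. TM7SF2, a sterol reductase, read 5.08 and 4.96 against 4.86 and 4.84, with the hairpin arrays below (−0.17 ± 0.094). FDPS, the farnesyl diphosphate synthase, differed by 0.06 ± 0.16, and HSD17B7, a sterol ketone reductase, by 0.19 ± 0.32. A second row of FDPS, with almost the same mean level (7.595 against 7.596), differed by −0.055. The sign of FDPS in MM1.S, positive in the counts above, thus depended on the row kept. In NCI-H929 that second row differed by −0.305, against −0.105 in the row used. HSD17B7 read 6.61 and 6.27 against 6.99 and 6.27, a spread within groups as wide as the difference, and its probes may also read a near-identical pseudogene.

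Among the regulators, the INSIG genes went opposite ways in MM1.S. INSIG1 had levels of 11.35 and 11.28 with scramble and 11.63 and 11.64 with shSIRT6, a difference of 0.32 ± 0.10 (SE; limma adjusted p = 0.159). INSIG2 had 8.24 and 8.11 against 7.84 and 7.83, a difference of −0.34 ± 0.10 (adjusted p = 0.138). Neither overlapped between the constructs. SREBF2 had 8.29 and 8.25 against 8.43 and 8.50 (0.195 ± 0.11), SREBF1 had 6.73 and 6.70 against 6.86 and 6.95 (0.19 ± 0.11), and SCAP had 7.17 and 6.96 against 7.19 and 7.18 (0.12 ± 0.10). The hairpin arrays thus lay above in 4 of 5 regulators and below in INSIG2, orders seen in 24.4% and 26.3% of all genes, with 0 called (limma). INSIG1, higher, and INSIG2, lower, had an unadjusted p below 0.05, against 8.25% and 11.3% of all genes in those directions. STARD4, a carrier of sterol between membranes, read 8.57 and 8.52 against 8.46 and 8.50, and MYLIP, the ligase that marks the LDL receptor for degradation, read 7.95 and 7.83 against 7.82 and 7.81. Their differences of −0.07 ± 0.13 and −0.08 ± 0.096 were smaller than their standard errors.

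No other enzyme of fatty acid synthesis was called. Over all 9, FASN included, the median was −0.04, with 3 positive, 5 negative and ACSS2 at 0, and it turned to 0.02 after quantile normalization. SCD, the desaturase that makes oleate, had 11.32 and 11.33 with scramble and 11.60 and 11.59 with shSIRT6, 4 values with almost no spread within groups, and a difference of 0.27 ± 0.094 (limma adjusted p = 0.180). A second row of SCD, with a lower mean level of 6.10, differed by 0.125. ACLY, which supplies cytosolic acetyl-CoA, read 9.70 and 9.58 against 9.73 and 9.80 (0.13 ± 0.099). ACACA, the acetyl-CoA carboxylase and committed step, read 8.04 and 7.88 against 7.92 and 7.74, which overlap (−0.13 ± 0.11). The elongase ELOVL5 read 8.42 and 8.36 against 8.21 and 8.29, with the hairpin arrays below (−0.14 ± 0.094). ELOVL6, FADS2 and FADS1, an elongase and desaturases, overlapped between the constructs, at −0.19, −0.25 and −0.04.

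The number of calls in MM1.S turned on how limma modelled the spread. With a prior that follows the level of the gene (trend), 7 members were called in MM1.S, among 7.48% of all genes: IDI1, MSMO1, DHCR7, INSIG1, FASN and SCD rose and INSIG2 fell. Adjusted p in that fit ran from 0.000515 for FASN to 0.0375 for IDI1, and the log2 differences were those given above. In that fit 6 of 30 members were called higher, where 1.91% of all genes were, and 1 lower, where 5.58% were. Fitting the MM1.S arrays alone gave 0 calls among members and 0 among all genes.

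**Figure D2:**
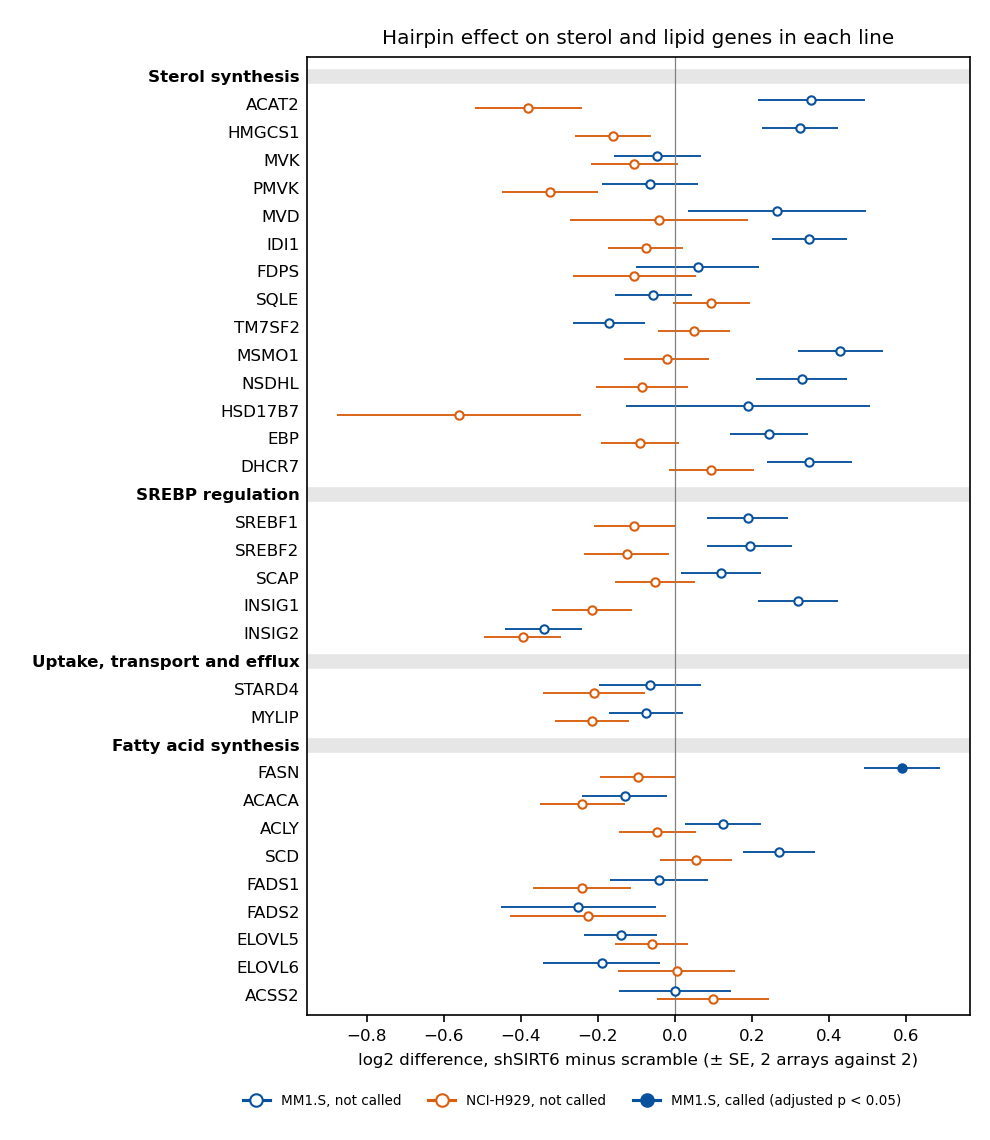
Log2 difference of shSIRT6 minus scramble for each of the 30 members, in MM1.S (blue) and NCI-H929 (orange), with limma's standard error as bars. Filled points were called, which is FASN in MM1.S alone. Most sterol synthesis genes lie to the right of 0 in MM1.S and near or left of 0 in NCI-H929, and INSIG2 lies to the left in both.

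In NCI-H929 no member was called (limma, 0 of 30, with 0.0236% of all genes called). At an unadjusted p below 0.05 there were 3, INSIG2, ACAT2 and PMVK, all lower with the hairpin, where 9.75% of all genes passed in that direction. Of the 30 members 24 were negative and 6 positive, where 7398 of all 12734 genes were negative. The members' median log2 difference was −0.10 against −0.045 over all genes. The split of the members depended on the scaling: 15 were negative after quantile normalization and 19 after cyclic loess. For sterol synthesis the median was −0.09, and 0.0059 after quantile normalization, −0.0375 without scramble replicate 2 of NCI-H929 and −0.1325 without its replicate 1.

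INSIG2 had the lowest p in NCI-H929, as the hairpin arrays read 7.34 and 7.37 and the scramble arrays 7.82 and 7.68 (−0.40 ± 0.10, SE; limma adjusted p = 0.210). ACAT2 read 6.36 and 6.67 with scramble and 6.26 and 6.01 with shSIRT6 (−0.38 ± 0.14, adjusted p = 0.287). PMVK read 8.75 and 8.81 against 8.42 and 8.49 (−0.33 ± 0.12, adjusted p = 0.311). In these 3 genes the hairpin arrays lay below the scramble arrays without overlap, as they did for 12 of 30 members and 30% of all genes, and TM7SF2 alone had them above (16.6% of all genes). INSIG1 read 9.84 and 9.81 against 9.51 and 9.71 (−0.22 ± 0.10) and HMGCS1 6.88 and 6.88 against 6.80 and 6.64 (−0.16 ± 0.099). MYLIP read 7.53 and 7.55 against 7.37 and 7.28 (−0.22 ± 0.096). STARD4 read 7.94 and 7.94 against 7.92 and 7.54, so that its difference of −0.21 ± 0.13 came to −0.02 without shSIRT6 replicate 2 and to −0.40 without replicate 1. The difference of ACAT2 came to −0.225 without scramble replicate 2, and that of INSIG1 to −0.115 without shSIRT6 replicate 1.

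Of the 9 enzymes with an unadjusted p below 0.05 in MM1.S, ACAT2 and HMGCS1 had hairpin arrays below the scramble arrays in NCI-H929, as given above. The differences of the other 7 in NCI-H929, among them NSDHL (−0.085 ± 0.12) and EBP (−0.09 ± 0.10), were no larger than their standard errors. FASN read 8.12 and 8.23 with scramble and 8.01 and 8.15 with shSIRT6, which overlap (−0.10 ± 0.099). MSMO1 read 8.89 and 8.91 against 9.0 and 8.76 (−0.02 ± 0.11) and IDI1 6.51 and 6.58 against 6.51 and 6.43 (−0.08 ± 0.098). SCD read 10.81 and 10.68 against 10.81 and 10.79 (0.06 ± 0.094), and DHCR7 8.13 and 8.24 against 8.34 and 8.22 (0.10 ± 0.11). HSD17B7 again spread widely, with 6.03 and 5.46 against 4.86 and 5.51 (−0.56 ± 0.32), and leaving out 1 NCI-H929 array gave −0.885 to −0.235. ACACA (8.0 and 8.04 against 7.83 and 7.73), FADS1 (7.05 and 7.09 against 6.89 and 6.77) and FADS2 (6.59 and 6.66 against 6.32 and 6.48) had hairpin arrays below the scramble arrays, at −0.24, −0.24 and −0.23, the last at −0.145 without shSIRT6 replicate 1.

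The difference between the lines in the hairpin effect, the interaction, was tested for each member and none passed (limma, 0 of 30, with 0.204% of all genes called). The difference, NCI-H929 minus MM1.S, was −0.69 ± 0.14 for FASN, −0.74 ± 0.20 for ACAT2, −0.54 ± 0.15 for INSIG1, −0.49 ± 0.14 for HMGCS1, −0.43 ± 0.14 for IDI1 and −0.45 ± 0.16 for MSMO1 (adjusted p from 0.138 to 0.275). At an unadjusted p below 0.05 there were 8, all negative, where 8.11% of all genes were. ACAT2, HMGCS1, INSIG1 and SCAP had hairpin arrays above scramble in MM1.S and below in NCI-H929 without overlap, an order seen in 6.24% of all genes. TM7SF2 had the reverse order, seen in 2.82%. With the trended prior 4 members were called, FASN, INSIG1, MSMO1 and ACAT2, among 3.38% of all genes (adjusted p from 0.00384 to 0.0353). Of the 30 members 24 had a negative difference, where 6926 of all 12734 genes did. The count for the members was also 24 after quantile normalization and after cyclic loess.

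Averaged over both lines, INSIG2 was the member with the lowest p, at −0.37 ± 0.071 (SE; limma adjusted p = 0.0772), with all 4 hairpin arrays below the scramble arrays of their own line. No member was called (limma, 0 of 30), with 0.0864% of all genes called; 6 had an unadjusted p below 0.05, against 21.3% of all genes. With the trended prior INSIG2 was called in the mean (adjusted p = 0.0043) and in each line (0.0283 in MM1.S and 0.0397 in NCI-H929, where it was the 1 member called, among 1.52% of all genes). In that fit MSMO1, DHCR7, FASN and SCD were called in the mean as well, with 7.15% of all genes. The mean log2 differences of those 4 were 0.205, 0.22, 0.25 and 0.16.

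**Figure D3:**
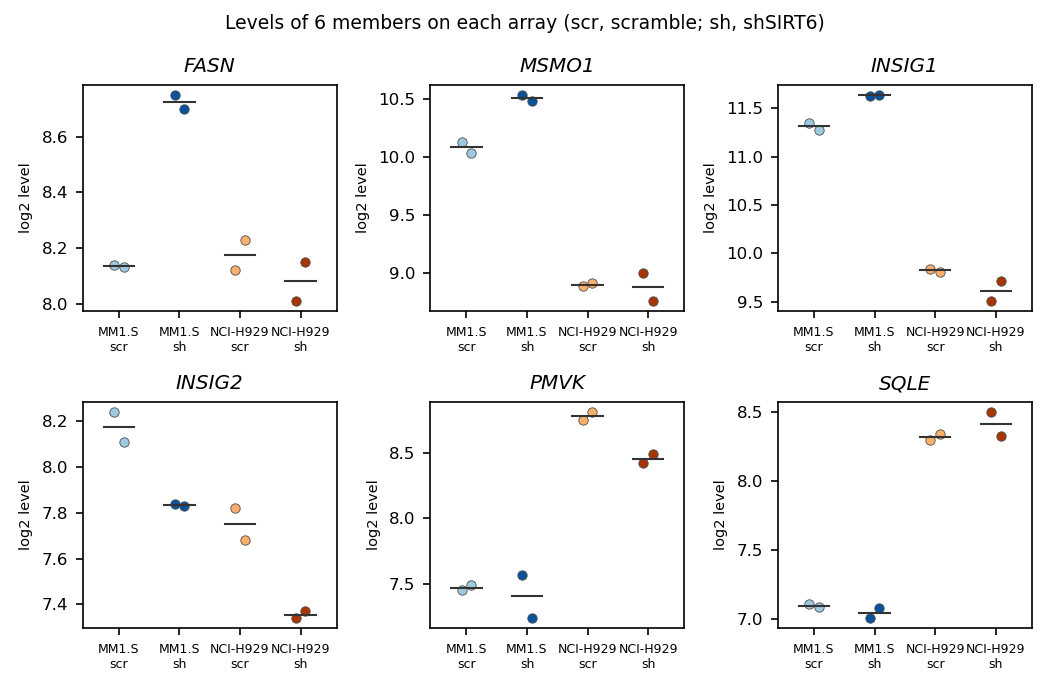
Log2 levels of 6 members on each of the 8 arrays, with bars at the means of 2 arrays; each panel has its own y range, which does not start at 0. FASN stands higher in MM1.S with the hairpin alone, INSIG2 is lower with the hairpin in both lines, and MSMO1, INSIG1, PMVK and SQLE differ more between the lines than between the constructs.

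More members were called between the lines than between the constructs. With scramble, 20 of 30 members were called between NCI-H929 and MM1.S, 8 higher and 12 lower in NCI-H929, where 38.3% of all genes were called, 20.0% higher and 18.3% lower. By role these were 9 of 14 enzymes of sterol synthesis, 4 of 5 regulators, both genes of uptake and transport, and 5 of 9 enzymes of fatty acid synthesis. The pathway did not shift as a block, since the median for sterol synthesis was −0.075 with 4 enzymes called higher and 5 lower. That median was −0.165 without scramble replicate 1 of MM1.S, −0.015 without scramble replicate 2 of MM1.S, and −0.04 and −0.11 without scramble replicate 1 or 2 of NCI-H929.

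Lower in NCI-H929 among the sterol enzymes were IDI1 by a log2 difference of −1.25 ± 0.098 (SE, 2.37-fold), MSMO1 by −1.19 ± 0.11, ACAT2 by −1.04 ± 0.14, EBP by −0.69 ± 0.10 and HMGCS1 by −0.61 ± 0.099 (limma adjusted p from 7.22e-05 to 0.00216). Higher there were PMVK by 1.31 ± 0.12 (2.48-fold), SQLE by 1.22 ± 0.10, NSDHL by 0.93 ± 0.12 and TM7SF2 by 0.37 ± 0.094 (adjusted p from 8.73e-05 to 0.0174). On the NCI-H929 arrays SQLE read 8.30 and 8.34 with scramble and 8.50 and 8.33 with shSIRT6, far above its 4 values in MM1.S. NSDHL read 8.31 and 8.36 with scramble and 8.15 and 8.35 with shSIRT6 there. EBP read 7.62 and 7.75 with scramble and 7.66 and 7.53 with shSIRT6, and TM7SF2 5.40 and 5.37 with scramble and 5.46 and 5.41 with shSIRT6. Steps close to each other in the pathway thus went opposite ways, as PMVK and IDI1, or MSMO1 and NSDHL. HSD17B7 (−0.70 ± 0.32), MVD, DHCR7, MVK and FDPS were not called, and the last 4 lay between −0.08 and 0.31.

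INSIG1 had the lowest p of all members, at −1.49 ± 0.10 (2.81-fold lower in NCI-H929; limma adjusted p = 4.07e-05). INSIG2 was lower by −0.43 ± 0.10 and SREBF2 by −0.39 ± 0.11, while SREBF1 was higher by 0.39 ± 0.11 (adjusted p = 0.0122, 0.0262 and 0.0224). In NCI-H929 SREBF2 read 7.76 and 8.0 with scramble and 7.72 and 7.79 with shSIRT6, and SREBF1 7.18 and 7.02 with scramble and 6.93 and 7.06 with shSIRT6. The genes of the pair of SREBP factors therefore differed in opposite directions between the lines with scramble. SCAP was not called (0.14 ± 0.10), with 7.23 and 7.17 against 7.16 and 7.14 in NCI-H929. STARD4 was lower by −0.61 ± 0.13 and MYLIP by −0.35 ± 0.096 (adjusted p = 0.00871 and 0.0224).

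Fatty acid enzymes were split as well. FADS2, the first desaturase of long polyunsaturated fatty acids, was higher in NCI-H929 by 1.41 ± 0.20 (2.65-fold), and its neighbour in the genome FADS1, a later desaturase of the same route, by 0.70 ± 0.13. In MM1.S FADS2 read 4.97 and 5.47 with scramble and 4.74 and 5.20 with shSIRT6, and FADS1 6.42 and 6.32 with scramble and 6.49 and 6.17 with shSIRT6. ACLY was higher by 0.48 ± 0.099, with NCI-H929 arrays at 10.17 and 10.07 (scramble) and 10.04 and 10.11 (shSIRT6). ACSS2, which makes acetyl-CoA from acetate, was lower by −0.96 ± 0.15, from 5.86 and 5.72 in MM1.S to 4.95 and 4.72 in NCI-H929. The enzymes that supply cytosolic acetyl-CoA from citrate and from acetate thus went opposite ways. With shSIRT6 ACSS2 read 5.83 and 5.75 in MM1.S and 5.11 and 4.76 in NCI-H929. SCD was lower by −0.58 ± 0.094, and adjusted p over these 5 ran from 0.00119 to 0.00671 (limma). FASN, ACACA, ELOVL5 and ELOVL6 were not called, at 0.04, 0.06, −0.02 and −0.21.

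**Figure D4:**
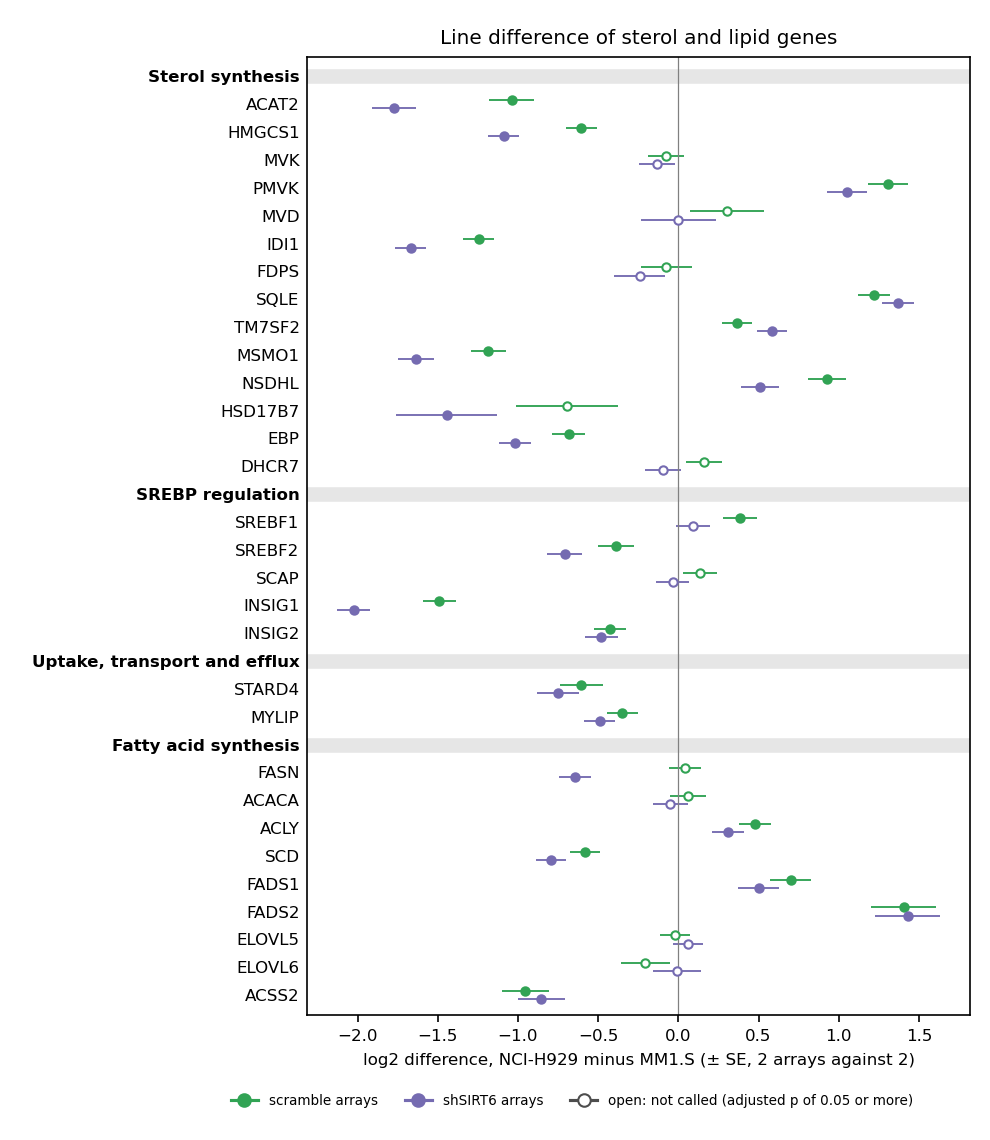
Log2 difference of NCI-H929 minus MM1.S for each member, from the scramble arrays (green) and from the shSIRT6 arrays (purple), with limma's standard error as bars; filled points were called. The members called with scramble keep their side of 0 with the hairpin, and INSIG1, ACAT2, IDI1 and MSMO1 lie farther to the left there.

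The same comparison on the shSIRT6 arrays, added after the data were seen, used 4 other arrays. Of the 20 members called with scramble, 19 were called there too, all 19 with the same sign, and 37.9% of all genes were called. SREBF1 was the exception (0.09 ± 0.11, SE; limma adjusted p = 0.556). HSD17B7 (−1.45 ± 0.32) and FASN (−0.65 ± 0.099) were called on the shSIRT6 arrays alone (adjusted p = 0.00885 and 0.00169). INSIG1 differed there by −2.03 ± 0.10, ACAT2 by −1.78 ± 0.14, IDI1 by −1.67 ± 0.098 and MSMO1 by −1.64 ± 0.11. Whether these sizes differ between the constructs is the interaction given above, which was not called.

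The smaller line differences lost their call in some alternatives, and none changed sign. With all rows fitted, those of TM7SF2, SREBF1, SREBF2 and MYLIP were not called. TM7SF2 was also not called with either trended prior, nor SREBF2 with only the arrays of the contrast in the fit. Without scramble replicate 1 of MM1.S, the calls of SREBF1 (0.40), SREBF2 (−0.37), INSIG2 (−0.36) and MYLIP (−0.29) ended. Without scramble replicate 2 of MM1.S those of TM7SF2 (0.305), SREBF1 (0.37) and SREBF2 (−0.41) ended. Without scramble replicate 1 of NCI-H929 those of TM7SF2 (0.35), SREBF1 (0.305), SREBF2 (−0.27) and MYLIP (−0.34) ended, and without its replicate 2 those of TM7SF2 (0.38), INSIG2 (−0.355) and MYLIP (−0.36). The other 15 calls held in each of the 18 alternatives that kept to the scramble arrays.

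Other genes of the same pathways, from lists of neighbours in metabolism, gave no hairpin call in either line. Of 14 further sterol and isoprenoid enzymes 7 were tested, with 0 called (limma). At an unadjusted p below 0.05 were 3 in MM1.S and 1 in NCI-H929, against 19.6% and 14.5% of all genes, and the counts for the other lists are read against the same shares. LBR, the sterol reductase of the nuclear envelope, was at −0.245 in MM1.S and −0.32 in NCI-H929. DHDDS, of dolichol synthesis, was at 0.28 and −0.21, and ACAT1, the mitochondrial thiolase, at −0.275 and −0.05. Of 10 genes of SREBP processing and degradation 4 were tested with 0 called (limma; 1 in each line at an unadjusted p below 0.05), and all 4 were negative in both lines, among them ERLIN2 (−0.26 and −0.165), ERLIN1 (−0.12 and −0.355) and the ubiquitin ligase RNF139 (−0.19 and −0.275). Over all 12734 genes tested, 6219 were negative in MM1.S and 7398 in NCI-H929. The 4 genes stayed negative in both lines after quantile normalization and after cyclic loess.

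Of 18 further genes of sterol uptake, transport and storage 7 were tested and 0 called (limma; 2 and 0 at an unadjusted p below 0.05). SOAT1, which esterifies cholesterol for storage, was at −0.325 in MM1.S and −0.075 in NCI-H929, and GRAMD1C, a sterol transfer protein, at −0.38 and −0.065. The lowest p in NCI-H929 were those of NCEH1, a cholesteryl ester hydrolase, at −0.13 in MM1.S and 0.18 in NCI-H929, and of OSBP, a sterol exchanger, at −0.175 and −0.18. Of 33 further fatty acid and glycerolipid enzymes 22 were tested and 0 called (1 and 3 at an unadjusted p below 0.05). ELOVL3 was at −0.255 and −0.73, near the filter level with a mean of 3.08, ELOVL7 at 0 and 0.365, ACSL4 at −0.27 and 0.005, and MLXIP at 0.115 and −0.375. Between the lines with scramble, 4 of 7, 2 of 4, 2 of 7 and 11 of 22 genes of these lists were called, in the order given, against 38.3% of all genes. The widest difference was that of ELOVL4, an elongase of very long chains, lower in NCI-H929 by −3.38 (adjusted p = 2.48e-06).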

How the data were processed

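The deposited table holds log2 expression levels, 1 row per transcript cluster, printed to 2 decimals; they come from RMA and the Transcriptome Analysis Console with build hg19, per the submitters' processing notes. No version or RMA variant is named there, and scanner intensities were not used here. Of 48226 rows, 16098 carry 1 gene symbol, 0 carry several and 32128 are unnamed here. The row with the highest mean was kept per gene, and the genes tested had means exceeding the 30th percentile over rows, a log2 level of 3.045. All 8 arrays entered 1 model of 4 group means in limma 3.58.1 (R 4.3.3, lmFit and eBayes; 4 residual and 3.43 prior degrees of freedom), with Benjamini-Hochberg adjustment over 12734 genes. An exact permutation test of 2 arrays against 2 cannot give a two-sided p below 0.333. The number of arrays limits the precision. The fitting code was tested on simulated data.

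The members and lists were chosen with earlier results of these data known. Values on every array are given for members called in any contrast and for the members of each role with the lowest p in each line; of the further lists, up to 3 genes with the lowest p per line. DHCR7, MVD, SCAP and ELOVL4 were added after their values were seen. The alternatives were other normalizations, filters, row rules, priors and array weights, single-line fits, a replicate block and leaving out each array. Deviations of same-numbered arrays from their group means correlated between constructs at 0.077 in MM1.S and −0.0011 in NCI-H929, so the numbers were not taken to pair the arrays. Promoters came from RefSeq tables of GRCh38.p14, with 5 members without an entry.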

Additional observations from a re-analysis of the deposited data

How the results depend on the processing

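With 2 arrays per group, hairpin calls among the members depended on the model of the spread, and line differences depended on it less. In MM1.S the count of called members, 1 in the fit used throughout, was 0 with no filter, with all rows fitted, with only the arrays of the contrast in the fit and with the replicate block, and 0 to 0 over the fits that left out 1 array. It was 7 with a trended prior and 7 with a trended and robust prior. With either of those priors the count rose from 0 to 1 in NCI-H929, from 0 to 5 for the mean of the lines and from 0 to 4 for the difference between them. FASN kept its direction in all 19 alternatives, from 0.565 to 0.636, and lost its call in 12. Of the line differences, 15 of 20 kept their call in every alternative that kept to the scramble arrays and none (0) changed sign. The count of members called between the lines ran from 16 to 20. The median sterol synthesis difference in NCI-H929 was 0.0059 after quantile normalization instead of −0.0875. Between the lines that median, −0.075 with scramble, ran from −0.165 to −0.015 when 1 array was left out and was −0.1875 on the shSIRT6 arrays, an alternative added after the data were seen. The replicate block left no call among all genes in any hairpin contrast, where FASN was the member whose call it ended, and it was not fitted for the line difference. The cause of these changes was not tested. Probes could not be judged against their background, so low levels such as those of TM7SF2, ACSS2 and FADS2 in 1 line have no stated limit of detection.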
